A study of Mus musculus with 4 samples.

Results

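Cells sorted for CD45, the surface marker of leukocytes, were compared between 1 library from MC38 tumors treated with a single antibody, here called single antibody A, and 1 library from tumors treated with isotype control. The members were all cells in which 500 or more genes were detected and no more than 10% of unique molecular identifiers (UMIs) were mitochondrial, and they numbered 14512 of the 28194 cells that passed these limits in all 4 libraries. Isotype control held 8148 of them and single antibody A 6364. The title of the library of single antibody A names anti-human CTLA-4, whereas its treatment field names anti-mouse FcgRII, so that the antibody is not settled and each statement below is about this library.

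All mice carried human CTLA-4 (B-hCTLA-4, host strain C57BL/6) and received MC38 cells, a mouse colon carcinoma line, under the skin. Treatment started when tumors measured about 100 mm3. The agents of the series were ipilimumab (anti-human CTLA-4, human IgG1) at 10 mg/kg, AT130-2 mIgG1-N297A (anti-mouse FcgRII) at 20 mg/kg, both together, and human IgG1 isotype control at 10 mg/kg. Tumors were taken on day 8 after 3 treatments, and those of 11 mice were pooled into 1 sample per group. Digested tumors passed over a Lympholyte gradient, which enriches mononuclear cells, before viable CD45+ cells were sorted, so that shares of cells are shares after these steps. The records give 1 batch for all libraries. The article gives other numbers of tumors, days, tumor sizes and doses for its single-cell experiment.

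CTLA-4 is an inhibitory receptor that T cells raise after activation and that regulatory T cells (Tregs) carry at high levels, where it competes with CD28 for the ligands CD80 and CD86. Fcγ receptors bind the constant part of IgG: the activating receptors, among them those encoded by Fcgr1, Fcgr3 and Fcgr4, drive macrophages to engulf antibody-coated cells, and the receptor encoded by Fcgr2b opposes them. Interferon gamma (IFN-γ), made by activated CD8+ T cells and natural killer (NK) cells, acts on tumor macrophages and raises guanylate-binding proteins, antigen presentation and the T cell attracting chemokines CXCL9 and CXCL10.

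RNA was measured with the Chromium Flex assay, in which probe pairs hybridize to the transcripts of fixed cells. The isotype library held 178178393 UMIs and the library of single antibody A 129151823, with a median of 14896 and 15351 UMIs per kept cell. No full cell barcode was shared between libraries, while 31.4% and 34.1% of kept cells had the droplet part of their barcode in common with a cell of another library, as happens when libraries are loaded together. With 1 library per group there is no replicate and no test. Levels are UMIs summed over a class of cells per 1000000 UMIs of that class (CPM), ratios are single antibody A to isotype control, and every interval is a 95% interval that covers counting error only. A gene rose or fell where its ratio reached 1.5 or its inverse. It also had to reach 20 CPM in either library and 20 UMIs in either library, and each limit could be met by a different library. Any difference between the antibodies cannot be told apart from a difference between the pools of tumors or the libraries.

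Cells were placed in classes by their UMIs of marker genes. Free T cells and NK cells took larger shares of the library of single antibody A, and profiles with markers of both lymphocytes and macrophages took a smaller one. T cells made up 4.10% of isotype control (334 cells) and 9.73% of single antibody A (619 cells), a ratio of 2.37 (2.09 to 2.70). NK cells together with type 1 innate lymphoid cells (ILC1) made up 3.36% (274 cells) and 6.27% (399 cells), a ratio of 1.86 (1.60 to 2.17). Macrophages, the largest class, held 46.5% and 49.2% of cells, and their ratio was 1.06 (1.02 to 1.09), which turned to 0.953 (56.9% and 54.2%) when each cell was drawn down to 2500 UMIs.

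Monocytes held 16.1% and 15.1% of cells, dendritic cells 1.57% and 1.41%, and neutrophils 1.24% and 1.38%, with intervals of the ratio that all included 1. Mast cells were fewer with single antibody A, at 61 cells in isotype control and 24 with the antibody, a ratio of shares of 0.504 (0.314 to 0.807). B cells numbered 19 and 11. Tumor and stromal cells numbered 66 and 64, and 3.31% and 3.94% of cells stayed unassigned.

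**Figure D1:**
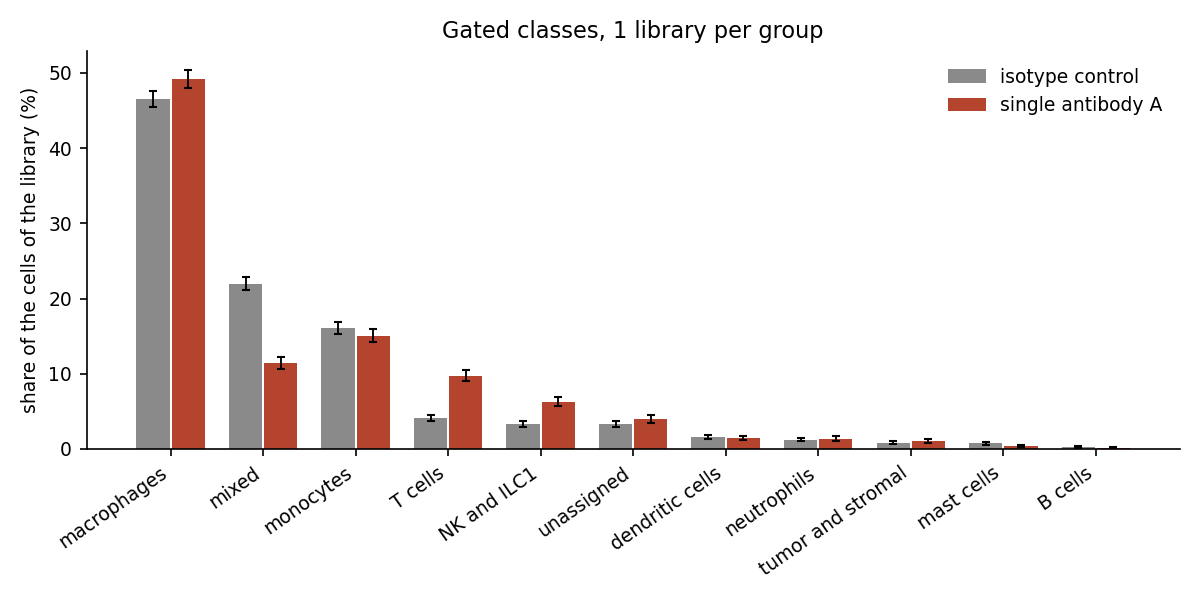
Share of the kept cells of each library (%) in each gated class, with isotype control in grey and single antibody A in red. Error bars are exact binomial 95% intervals for counting error. T cells and NK cells with ILC1 stand higher with single antibody A, and mixed profiles fall from 22.0% to 11.5%.

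Mixed profiles, which carried at least 3 UMIs of T or NK cell markers in a cell with macrophage markers, fell from 1791 cells (22.0%) to 729 cells (11.5%), a ratio of 0.521 (0.481 to 0.564). Most had T cell markers (1729 and 708 cells) and most had C1q transcripts (92.2% and 89.8%). Of those with T cell markers, 633 and 263 also had at least 3 UMIs of NK cell markers. A mixed profile held about as many UMIs of T cell markers as a T cell did, with a median of 42 and 47 against 38 and 51, within a far larger total of 32090 and 29447 UMIs. The droplet barcode was shared by 33.1% and 36.4% of mixed profiles, against 31.9% and 35.3% of macrophages. By Scrublet doublet score, 12.5% and 29.1% of mixed profiles were in the top 5% of their library. The same held for 4.54% and 3.04% of macrophages and for 0% and 0.162% of T cells. Whether these mixed profiles are pairs of cells in 1 droplet, cells bound to each other or macrophages that took up T cells was not tested.

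The shift of T cells between free and mixed profiles decides the direction of the T cell share. With T cell marked mixed profiles counted as T cells, T cells made up 25.3% of isotype control (2063 cells) and 20.9% of single antibody A (1327 cells), a ratio of 0.824 (0.775 to 0.875). That count includes the 633 and 263 mixed profiles with both T and NK cell markers. Leaving them out would narrow the difference, with the T cell share only slightly smaller with single antibody A. No interval was computed for that count. Without cells of shared droplets the ratio of shares was 2.40 for free T cells and 0.516 for mixed profiles. Among all profiles with lymphocyte markers, 74.7% were mixed in isotype control and 41.7% with single antibody A.

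Within T cells, CD8+ cells gained on CD4+ cells, and Tregs lost ground among CD4+ cells, both in free T cells and in mixed profiles. Free CD8+ T cells, defined by UMIs of Cd8a or Cd8b1 and none of Cd4 or Foxp3, numbered 88 in isotype control and 291 with single antibody A, and their share of the library rose 4.23-fold (3.34 to 5.36). CD4+ T cells had a Cd4 UMI and none of Cd8a or Cd8b1. Those without a Foxp3 UMI numbered 95 and 182, a ratio of shares of 2.45 (1.92 to 3.14). A further 80 and 103 free T cells were neither CD8+ nor CD4+ by these rules. Tregs, the CD4+ T cells with a UMI of Foxp3 (chrX:7573644-7595245 in GRCm38), which encodes their defining transcription factor, numbered 71 and 43, and the interval of their ratio, 0.775 (0.532 to 1.13), included 1.

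The ratio of CD8+ to CD4+ T cells was 0.530 in isotype control and 1.29 with single antibody A, 2.44 times higher (1.79 to 3.33). Tregs made up 42.8% of free CD4+ T cells (35.1% to 50.7%) and 19.1% (14.2% to 24.9%). There were 1.24 and 6.77 CD8+ T cells per Treg. With each T cell drawn down to 2000 UMIs, which left out 26 and 44 shallower cells, the CD8+ to CD4+ ratio was 0.613 and 1.45 and the Treg share 39.9% and 17.6%, so that the direction did not rest on the depth of the cells.

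In mixed profiles Tregs fell the most. By the same rules, mixed profiles with Treg markers numbered 332 in isotype control and 48 with single antibody A, a ratio of shares of 0.185 (0.137 to 0.250). A Foxp3 UMI was present in 559 and 81 T cell marked mixed profiles, and 747 and 246 were neither CD8+ nor CD4+. Those with markers of Foxp3-negative CD4+ cells numbered 309 and 132, a ratio of 0.547 (0.447 to 0.669). For CD8+ markers the numbers were 341 and 282, and the interval of the ratio, 1.06 (0.907 to 1.24), included 1. The Treg share of CD4+ mixed profiles was 51.8% and 26.7%, against 42.8% and 19.1% in free cells.

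Counted together, free and mixed CD8+ profiles had a ratio of shares of 1.71 (1.52 to 1.93), Foxp3-negative CD4+ profiles 0.995 (0.862 to 1.15) and Tregs 0.289 (0.231 to 0.362). Foxp3 was rarely detected in cells that should lack it. A Foxp3 UMI was present in 24.9% and 8.40% of T cells (median 3902 and 4891 UMIs), in 1 of 274 and 0 of 399 NK cells and ILC1 (median 4024 and 4334 UMIs), and in 0.554% and 0.0319% of macrophages (median 17295 and 21542 UMIs). The gate sends macrophages with 3 or more UMIs of T or NK markers to mixed profiles, so their low rate follows in part from it. Genes of the T cell list were seen in 93.1% and 95.7% of NK cells and ILC1, and Cd4 in 1.72% and 2.46% of macrophages.

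**Figure D2:**
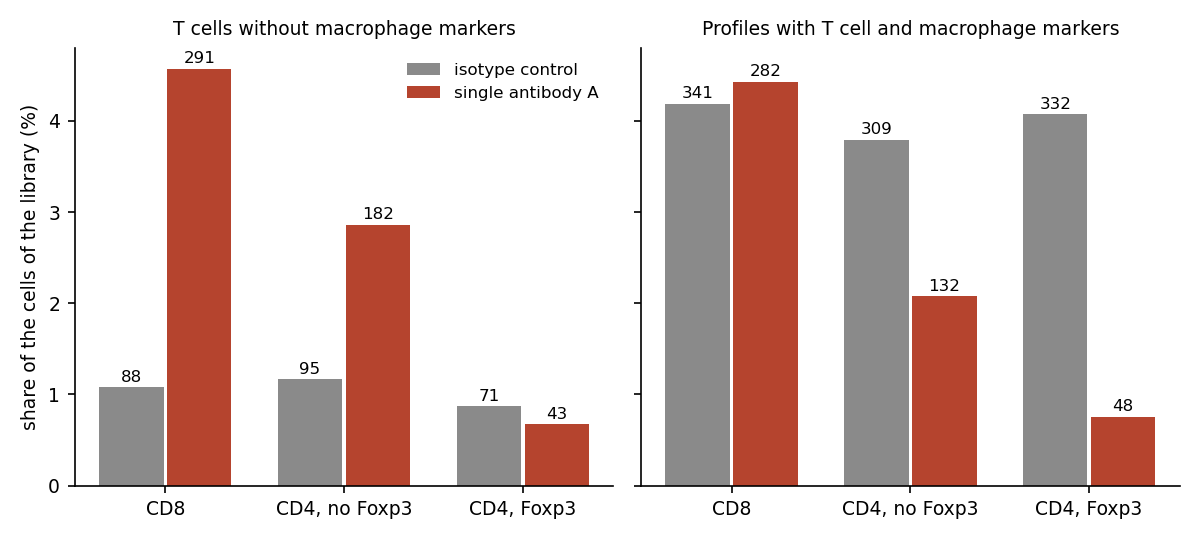
Share of the library (%) held by CD8+ T cells, CD4+ T cells without Foxp3 and CD4+ T cells with Foxp3, among free T cells on the left and among profiles with T cell and macrophage markers on the right. Numbers above the bars are cells. CD8+ cells rise among free T cells from 88 to 291, and Foxp3-positive CD4+ profiles fall among mixed profiles from 332 to 48.

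Macrophages with single antibody A had more RNA of IFN-γ response genes, chemokines and Nos2, and less RNA of monocyte genes. These differences were modest in size and ran through whole lists. Of 7276 genes tested, 41 (0.563%) rose and 31 (0.426%) fell, and the median log2 ratio of all tested genes was -0.05. Without the top 5% by doublet score, 19 fell. Marker lists of other cells differed in macrophages: T cell markers stood at 4.67 and 3.71 CPM, against 9957 and 10939 CPM in T cells, those of monocytes at 1110 and 722 CPM, dendritic cells at 55.8 and 29.0 CPM, B cells at 44.8 and 26.3 CPM, and mast cells at 7.63 and 0.0804 CPM. Their part in the results was not tested.

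All 20 tested IFN-γ response genes had a ratio above 1 in macrophages, 5 of them past 1.5-fold, with a median log2 ratio of 0.44. Type I interferon-stimulated genes were also above 1 for all 17 tested, 2 of them past 1.5-fold, with a median of 0.28. Cxcl9 (chr5:92321347-92328079 in GRCm38), which encodes a ligand of the T cell receptor CXCR3, stood at 801 CPM in isotype control and 1540 CPM with single antibody A and rose 1.92-fold (1.90 to 1.94). Cxcl10, for another CXCR3 ligand, had 272 and 408 CPM, just under the limit of 1.5. Cd274, which encodes PD-L1, rose 1.54-fold from 130 to 199 CPM. The interferon-inducible GTPase genes Tgtp2 (1.55), Iigp1 (1.54) and Gbp6 (1.51) rose as well, though Tgtp2 has a near-identical neighbor, Tgtp1, and reads of the pair can be divided between them.

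The transcription factor genes Irf1, at 341 and 407 CPM (1.19), and Ciita, at a ratio of 1.05, moved less. A Cxcl9 UMI was present in 48.8% of macrophages in isotype control and 68.0% with single antibody A. At 2500 UMIs per cell the shares were 30.6% and 49.3%, against 8.96% and 3.89% of T cells at the same depth. The higher level was therefore spread over more cells. Under the 4 other ways of gating, scaling or weighting cells that were tried, all 20 genes kept a ratio above 1, and between 2 and 7 passed 1.5-fold.

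The letters TTCNNNGAA are those of the gamma interferon activation site, a promoter element of many IFN-γ response genes, and the promoters of the IFN-γ list are shown for the holders of these letters whose levels are given in the text. Searched on both strands from 250 bases before to 50 bases after the RefSeq start (GRCm38.p6), the motif was in 7 of the 14 genes of the list with a promoter window (50%) and in 9.55% of all 27025 genes. The holders are not independent, because the stretches of Igtp and Irgm2 are close to identical, as are those of Tgtp1 and Tgtp2. Gbp5 and Gbp7 are of 1 family. Of the genes shown here, Tgtp2 alone passed 1.5-fold in macrophages. Irf1 moved less, as given above, and Gbp5 had 123 CPM in isotype control and 169 CPM with single antibody A in macrophages. Levels of Igtp and Irgm2 are given below for other classes. The motif stands in capitals, and each stretch reads in the direction of the gene.
Irf1, chr11:53769894-53769962, plus strand: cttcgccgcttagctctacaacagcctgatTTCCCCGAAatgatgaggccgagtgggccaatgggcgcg
Gbp5, chr3:142496852-142496920, plus strand: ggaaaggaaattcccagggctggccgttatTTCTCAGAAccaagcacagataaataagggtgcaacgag
Igtp, chr11:58199481-58199549, plus strand: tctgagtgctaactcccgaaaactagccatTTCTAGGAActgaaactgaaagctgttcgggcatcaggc
Irgm2, chr11:58214872-58214940, plus strand: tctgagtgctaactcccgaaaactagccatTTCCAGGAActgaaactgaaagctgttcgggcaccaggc
Tgtp2, chr11:49064255-49064323, minus strand: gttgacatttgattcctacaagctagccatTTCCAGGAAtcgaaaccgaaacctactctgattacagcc
The motif shown starts 90, 52, 45, 75 and 81 bases before the start of the gene in the same order, and Gbp5 holds another match that starts 245 bases before. A match describes the letters and not binding.

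Chemokine genes moved together in macrophages, with 14 of 15 tested above a ratio of 1, 7 past 1.5-fold and a median log2 ratio of 0.58. Ccl8 (chr11:82115185-82116799), a gene of resident-like macrophages whose product attracts monocytes and T cells, rose 2.91-fold (2.82 to 3.01) from 65.8 to 191 CPM, and macrophages with a Ccl8 UMI went from 17.3% to 33.2%. The monocyte attractants Ccl2 (283 and 442 CPM, 1.56), Ccl7 (305 and 497 CPM, 1.63) and Ccl12 (567 and 860 CPM, 1.52) rose. Ccl5, which attracts T cells, rose 1.64-fold from 291 to 478 CPM. Cxcl14 was the member with a ratio under 1, at 0.866.

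Among inflammatory genes, Nos2 (chr11:78920787-78960254), which encodes inducible nitric oxide synthase, rose 2.26-fold (2.19 to 2.32) from 95.7 to 216 CPM. A Nos2 UMI was present in 21.2% and 31.8% of macrophages, or 9.47% and 15.5% at 2500 UMIs, and in 5 of 334 and 9 of 619 T cells. Il1a rose 1.63-fold. The other tested members ranged from Acod1 at 1.49, through Il1b at 1.08, to Cd80 at 0.989, and 9 of 10 were above 1.

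The Fcγ receptor genes stayed inside 1.5-fold. Fcgr4 (chr1:171018920-171029761), for the activating receptor FcγRIV, had 558 and 805 CPM, a ratio of 1.44 (1.42 to 1.46). Fcgr1 (1.10), Fcgr3 (1.04) and Fcer1g, the shared signaling chain (1.05), lay close to 1. The inhibitory Fcgr2b (chr1:170958617-170976547) had 1236 and 1218 CPM, a ratio of 0.985 (0.976 to 0.994). The activating receptor gene with the largest ratio thus differed from Fcgr2b by more than counting error, with no replicate to set that against.

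Monocyte genes pointed the other way in macrophages. None of the 10 tested had a ratio above 1, 6 fell, and the median log2 ratio was -0.69. Hp, which encodes haptoglobin, fell from 25.1 to 9.01 CPM (0.358), Ace, for angiotensin-converting enzyme, from 35.4 to 15.6 CPM (0.442), and Ccr2, the receptor for CCL2, from 655 to 409 CPM (0.624). Ccr2 is 1 of the genes of the macrophage gate. With the top 5% of each library by doublet score removed, 5 of the 10 fell.

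Resident-like macrophage genes had 11 of 12 tested above 1, with Ccl8 and Ccl24 past 1.5-fold and Folr2 at 1.36. The genes for matrix handling and Arg1 divided: Fn1, for fibronectin, fell from 4118 to 2569 CPM (0.624), Mmp13, a collagenase gene, rose from 72.6 to 123 CPM (1.70), and Arg1 had 1750 and 1902 CPM (1.09). The genes for MHC class II were all above 1 and inside 1.5-fold, with Cd74 at 1.20, and in the MHC class I list B2m was the 1 member past it, beside H2-K1 at 1.22 and H2-D1 at 1.23.

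By the rule of the largest ratios, Retnla, Ccl8, Gbp2b, Dnase1l3 and Vcam1 led the macrophage genes that rose. Retnla, a gene of alternative activation, stood at 9.17 and 104 CPM (11.4), from 32 and 76 cells, of which 1 cell held 25.2% of the UMIs with single antibody A. Gbp2b, whose sequence is close to that of Gbp2, rose 2.79-fold from 24.9 to 69.4 CPM, Dnase1l3, for an extracellular DNase, 2.46-fold and Vcam1, for an adhesion molecule that binds lymphocytes, 2.27-fold. Of the 5 that fell most, Mcpt2, a mast cell protease gene, took 59.3% of its UMIs in isotype control from 1 cell, Klf4, for a transcription factor, fell from 68.6 to 34.9 CPM (0.508), Lsp1, for an actin-binding protein of leukocytes, from 280 to 159 CPM (0.570) and Hspb1, for a small heat shock protein, from 51.5 to 30.7 CPM (0.597). Sem1, the fifth, fell in other classes too and is described with them.

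**Figure D3:**
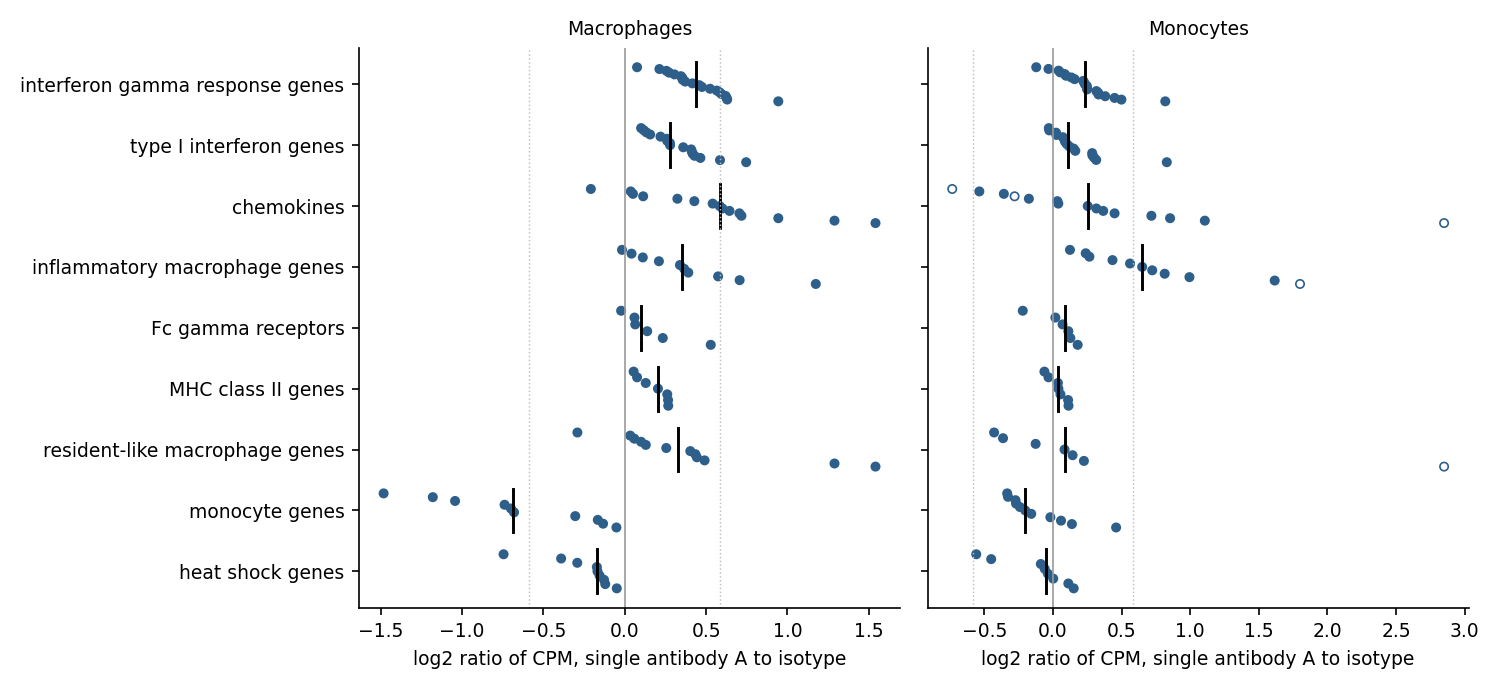
Log2 ratio of CPM, single antibody A to isotype control, for each tested gene (point) of 9 lists in macrophages (left) and monocytes (right). Black bars are medians, dotted lines mark 1.5-fold, and hollow points are genes with over 10% of their UMIs from 1 cell in the library with the higher level. IFN-γ response genes lie to the right of 0 in macrophages, with a median of 0.44, and monocyte genes to the left, with a median of -0.69.

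Monocytes with single antibody A had more RNA of inflammatory and hypoxia genes, while their IFN-γ list moved less than in macrophages. Of 6987 genes tested, 71 (1.02%) rose and 20 (0.286%) fell. With stricter gates, 41 fell. The stricter gates doubled most marker limits, but not the C1q limit that parts monocytes from macrophages. All 11 tested inflammatory genes had a ratio above 1 and 6 rose, with a median log2 ratio of 0.65. Nos2 rose 3.07-fold (2.90 to 3.24) from 152 to 466 CPM, and the share of monocytes with a Nos2 UMI was 12.6% and 23.8%.

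Other inflammatory genes that rose in monocytes were Il1a (30.7 to 61.2 CPM, 1.99), Slc7a2, an arginine transporter gene (105 to 184 CPM, 1.76), Acod1, which makes itaconate (185 to 306 CPM, 1.65), and Ass1, which regenerates arginine (491 to 771 CPM, 1.57). Inhba, for an activin subunit, stood at 13.7 and 47.6 CPM with 26.9% of its UMIs from 1 cell. Il1b (1.18) and Tnf (1.09) stayed inside 1.5-fold.

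Of 21 IFN-γ response genes tested in monocytes, 19 were above 1 and Cd274 passed 1.5-fold, from 150 to 265 CPM (1.76). Cxcl9 had 551 and 752 CPM (1.37). With stricter gates, 4 genes of the list rose. All 17 tested glycolysis and hypoxia genes were above 1 and 4 rose, among them Vegfa, the angiogenic factor (262 to 453 CPM, 1.73), Egln3, an oxygen-sensing hydroxylase gene (160 to 267 CPM, 1.66), and Hilpda (127 to 197 CPM, 1.55).

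Chemokine genes of monocytes divided, with 4 of 15 past 1.5-fold and Cxcl3 below its inverse. Ccl5 rose 2.15-fold from 361 to 778 CPM, Cxcl2, a neutrophil attractant, 1.81-fold and Ccl2 1.64-fold. Ccl24 had the largest ratio, 28.4 and 204 CPM, with 20.4% of its UMIs from 1 cell. Mgl2, a C-type lectin gene (25.6 to 90.8 CPM, 3.54, with 12.7% of its UMIs from 1 cell) and Slc7a11, the cystine transporter gene (41.5 to 98.2 CPM, 2.36), were next to Nos2 among the leading genes. Klf4 fell from 232 to 143 CPM (0.616) and Fosb, of the AP-1 family, from 375 to 226 CPM (0.604).

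T cells as a whole had more RNA of cytotoxic, checkpoint and cell cycle genes with single antibody A and less of Treg genes. These levels move with the make-up of the class, in which CD8+ cells went from 88 of 334 to 291 of 619. Of 7938 genes tested, 311 (3.92%) rose and 382 (4.81%) fell. All 11 cytotoxic genes were above 1 and 9 rose, with a median log2 ratio of 1.07.

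Ifng (chr10:118441046-118445892), which encodes IFN-γ, rose 3.43-fold (3.16 to 3.74) from 380 to 1303 CPM in T cells. Over 10% of its UMIs with single antibody A came from 1 cell. Prf1 (chr10:61297833-61304680), for perforin, rose 2.73-fold from 232 to 632 CPM and was seen in 73 and 240 cells. Nkg7, a granule gene, rose 1.57-fold, while Gzmb, for granzyme B, had 1279 and 1567 CPM (1.23). Pdcd1, which encodes PD-1, rose 1.71-fold from 521 to 892 CPM.

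Treg genes fell, 9 of 12 tested. Foxp3 fell from 438 to 111 CPM (0.254, 0.225 to 0.287), Il2ra, the high-affinity IL-2 receptor chain gene, from 709 to 252 CPM (0.355), Tnfrsf4, for OX40, from 421 to 202 CPM (0.479), Icos from 955 to 504 CPM (0.528) and Ctla4 (chr1:60887000-60915832) from 288 to 144 CPM (0.501, 0.442 to 0.567). Foxp3 itself defines the Tregs counted above. The mice carry a humanized CTLA-4, and which part of that transcript the mouse probes read is not given in the sources used here.

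Genes of macrophages were also lower in T cells. The macrophage marker list stood at 576 and 277 CPM there, Fcgr2b at 68.4 and 27.2 CPM against 1236 and 1218 CPM in macrophages, and 6 of 7 MHC class II genes fell. Their part in the other T cell results was not tested. Of the 10 genes named by size in T cells, 9 took over 10% of their UMIs from 1 cell. Among genes less concentrated in 1 cell, Trbv31, a T cell receptor V segment, rose 7.06-fold from 26.5 to 187 CPM in 14 and 63 cells, and Itgae, for the CD103 integrin chain, fell from 157 to 45.6 CPM (0.290).

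Taken apart from the other T cells, CD8+ T cells still differed, with more cell cycle and effector RNA and less RNA of stem-like and naive genes. The class held 88 cells in isotype control and 291 with single antibody A, with a median of 4864 and 6664 UMIs. Of 7909 genes tested, 571 (7.22%) rose and 558 (7.06%) fell. Klf2 (chr8:72319033-72321656), a transcription factor gene of quiescent T cells, fell from 358 to 128 CPM (0.357).

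None of the 10 stem-like and naive genes was above 1 in CD8+ T cells and 7 fell, with a median log2 ratio of -0.90. S1pr1, which lets T cells leave tissue, fell from 131 to 48.2 CPM (0.367), Ccr7 from 185 to 91.3 CPM (0.495) and Tcf7, the transcription factor gene of stem-like cells, from 144 to 69.3 CPM (0.482), whereas Lef1 had a ratio of 0.967. Of the S1pr1 UMIs in isotype control, over 10% came from 1 cell. With each cell given equal weight, 5 of the 10 fell. All 19 cell cycle genes were above 1 and 11 rose, among them Mki67 (271 to 480 CPM, 1.77) and Top2a (255 to 468 CPM, 1.84), with a median log2 ratio of 0.73.

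Of 11 cytotoxic genes in CD8+ T cells, 9 were above 1 and 5 rose. Prf1 rose from 557 to 935 CPM (1.68), whereas Gzmb had 1582 and 2057 CPM (1.30) and Gzma a ratio of 0.748. The neighboring granzyme genes Gzmc (2.84), Gzmd (3.05), Gzme (3.76) and Gzmf (3.21) rose, each with over 10% of its UMIs from 1 cell. Ifng rose 1.87-fold (1.69 to 2.08), from 764 to 1430 CPM, a smaller ratio than in T cells as a whole. How far T cells outside the CD8+ class raised that larger ratio was not tested.

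Checkpoint genes of CD8+ T cells were above 1 for 11 of 13, and Nr4a3, Cd244a, Tigit and Nr4a2 rose. Pdcd1 had 952 and 1209 CPM (1.27) and Lag3 a ratio of 1.13, both inside 1.5-fold, and Tox had a ratio of 0.742. Glycolysis and hypoxia genes were above 1 for 14 of 15, with Slc2a1, the glucose transporter gene, at 86.8 and 150 CPM (1.73). Trbv31 rose 5.42-fold from 51.7 to 280 CPM.

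Foxp3-negative CD4+ T cells, with 95 and 182 cells, had more cell cycle RNA. Of 7072 genes tested, 693 (9.8%) rose and 458 (6.48%) fell, and 10 of the 16 cell cycle genes rose, with Mcm6, a replication helicase gene, at 1.90. Pdcd1 rose from 285 to 459 CPM (1.61). Ctla4 had 189 and 176 CPM, and the interval of its ratio, 0.932 (0.695 to 1.26), included 1, so that no difference was detectable at this depth in these cells. Klf2 fell from 717 to 410 CPM (0.572), and each of the 10 genes named by size rested to over 10% on 1 cell.

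**Figure D4:**
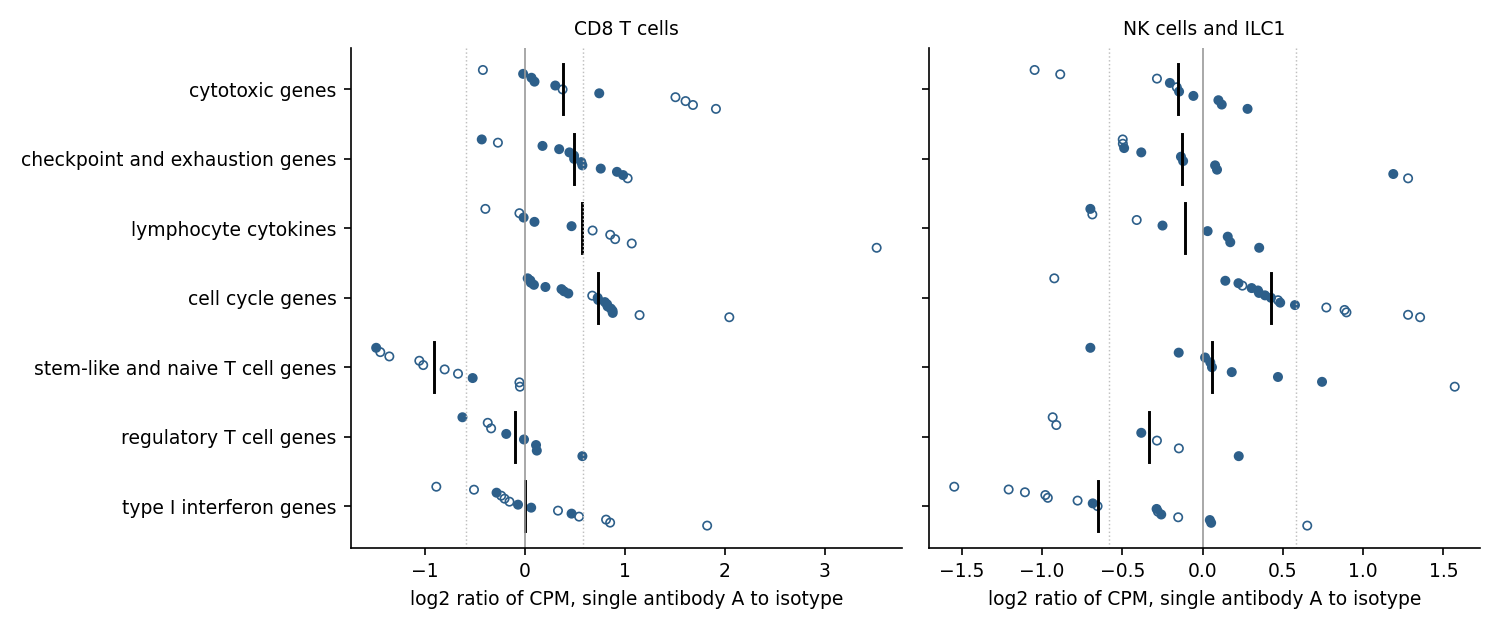
Log2 ratio of CPM, single antibody A to isotype control, for each tested gene (point) of 7 lists in CD8+ T cells (left) and in NK cells and ILC1 (right), drawn as for the myeloid lists. Stem-like and naive genes lie to the left in CD8+ T cells, with a median of -0.90, and cell cycle genes to the right, with a median of 0.73. In NK cells and ILC1, type I interferon genes lie to the left, with a median of -0.65.

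Free NK cells and ILC1 took a larger share of the library with single antibody A but none of their tested cytotoxic genes passed 1.5-fold upward. Of 7769 genes tested, 227 (2.92%) rose and 179 (2.3%) fell. Of the 10 cytotoxic genes 2 fell, with Gzma at 3705 and 4500 CPM (1.21), Prf1 at a ratio of 0.869 and Gzmb at 0.895. Ifng had 324 and 272 CPM, a ratio of 0.841 (0.747 to 0.949).

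Xcl1, whose product attracts cross-presenting dendritic cells, fell from 2513 to 1549 CPM (0.616, 0.589 to 0.645) in NK cells and ILC1 and was seen in 171 of 274 and 247 of 399 cells. Type I interferon-stimulated genes fell for 8 of 15 and Ifi44 rose. Isg15 fell from 121 to 70.3 CPM (0.583) and Cmpk2 from 42.8 to 14.7 CPM (0.343), in contrast to macrophages, where all 17 tested genes of that list were above 1 with a median log2 ratio of 0.28. Of the 8, all but Oas1a (0.623) took over 10% of their UMIs in isotype control from 1 cell.

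Cell cycle genes of NK cells and ILC1 were above 1 for 16 of 17, and 5 rose, among them Top2a (71.2 to 132 CPM, 1.86) and Ccna2 (2.56), while Ccnb2 fell (0.527). Pdcd1 rose from 67.9 to 165 CPM (2.43, 1.95 to 3.05) in 13 and 31 cells, with 12.0% of its UMIs from 1 cell. Entpd1, for the ectoenzyme CD39, rose from 31.6 to 72.1 CPM (2.28, 1.64 to 3.21) in 39 and 100 cells, and macrophages had 303 and 347 CPM.

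Mixed profiles differed in genes of T cells and of macrophages. The T cell levels move with the make-up of these profiles. Of those with T cell markers, CD8+ ones numbered 341 of 1729 and 282 of 708, and Tregs 332 and 48. Cd8a and Foxp3 themselves define these subsets. Of 7652 genes tested, 76 (0.993%) rose and 19 (0.248%) fell. On the T cell side all 11 cytotoxic genes were above 1 and 8 rose, with Prf1 at 88.7 and 164 CPM (1.85) and Gzmk at a ratio of 2.64. Cd8a rose from 66.3 to 156 CPM (2.35), Pdcd1 from 64.6 to 143 CPM (2.22) and Rgs16 from 52.5 to 127 CPM (2.41).

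Treg genes fell in mixed profiles for 5 of 10, among them Foxp3 from 68.5 CPM by a ratio of 0.437, Il2ra from 102 to 56.5 CPM (0.555) and Ctla4 from 41.8 to 25.9 CPM (0.620). On the macrophage side all 20 tested IFN-γ response genes were above 1, with Cxcl9 (753 to 1244 CPM, 1.65) and Cxcl10 (1.87) past 1.5-fold. Their median log2 ratio was 0.42. Type I interferon-stimulated genes were above 1 for all 17 tested, 4 of them past 1.5-fold, with a median log2 ratio of 0.43. Heat shock genes were under 1 for all 9 tested, and Hspa1b fell from 545 to 270 CPM (0.495). Among macrophages the same list was under 1 for all 9 with Hspb1 alone past the limit.

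IFN-γ response genes leaned upward in dendritic cells, neutrophils and tumor and stromal cells, with less precision than in macrophages, and did not do so in most lymphocyte classes. In T cells 2 of 21 tested were above 1 and 4 fell, with a median log2 ratio of -0.21. In NK cells and ILC1 10 of 18 were above 1 and 2 fell, in Foxp3-negative CD4+ T cells 10 of 20 were above 1, 2 rose and 2 fell, and in CD8+ T cells 14 of 20 were above 1, 3 rose and 1 fell. Dendritic cells numbered 128 and 90, and of 7560 genes tested 416 (5.5%) rose and 643 (8.51%) fell. Of their 20 tested IFN-γ response genes 19 were above 1 and 12 rose, with a median log2 ratio of 0.75. Gbp5 had 149 and 341 CPM (2.29, 1.88 to 2.79) with under 10% of its UMIs from 1 cell. Igtp had 89.4 and 194 CPM (2.17), with over 10% of its UMIs with single antibody A from 1 cell. Cxcl10 and Cxcl9 took 31.9% and 27.8% of theirs from 1 cell with single antibody A. Cd209a, 1 of the genes of the dendritic cell gate, had 982 and 1516 CPM (1.54). The monocyte and macrophage marker list stood at 2366 and 3528 CPM in dendritic cells, and its part in these results was not tested.

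Neutrophils numbered 101 and 88, with a median of 3017 and 3205 UMIs, and of 5308 genes tested 539 (10.2%) rose and 1048 (19.7%) fell. Tumor and stromal cell markers went with these counts, at 3126 CPM in isotype control and 240 CPM with single antibody A, as did monocyte markers at 897 and 1649 CPM and B cell markers at 1.99 and 205 CPM, and their part was not tested. All 10 genes named by size in neutrophils took over 10% of their UMIs from 1 cell, and 8 took over 50%. Among those that fell, Igfbp5 and Pdgfrb were each seen in 2 cells of isotype control. IFN-γ response genes were above 1 for 16 of 17 and 14 rose, with a median log2 ratio of 0.86, among them Gbp5 (189 to 863 CPM, 4.57) and Irf1 (686 to 1269 CPM, 1.85). Of the Gbp5 UMIs with single antibody A, over 10% came from 1 cell. Inflammatory neutrophil genes were above 1 for 13 of 13 and 7 rose. Retnlg, a gene of neutrophils fresh from the blood that is also in the gate, fell from 1476 to 516 CPM (0.350). Over 10% of its UMIs in isotype control came from 1 cell. A single cell with red blood cell genes gave 609 CPM of that list to the library of single antibody A, against 0 in isotype control.

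Tumor and stromal cells that passed the CD45 sort numbered 66 and 64, with a median of 31664 and 76034 UMIs, and of 8603 genes tested 202 (2.35%) rose and 330 (3.84%) fell. IFN-γ response genes were above 1 for 19 of 20 and 14 rose, with a median log2 ratio of 0.82. Igtp had 107 and 282 CPM (2.63) and Irgm2 61.3 and 160 CPM (2.62). Each took over 10% of its UMIs with single antibody A from 1 cell. The 5 tested MHC class II genes fell, and each was at least 5-fold higher in macrophages. The difference in depth between the 2 groups of cells moves with these values, and its part was not tested.

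A few genes differed by a similar ratio in every class. Among 4403 genes tested in each of 7 classes, B2m and Dynlt1f were past 1.5-fold upward in all 7, and Sem1 downward in all 7. B2m (chr2:122147686-122153083), the light chain of MHC class I, had ratios of 1.82 to 2.22, Dynlt1f (chr17:6646602-6655900), a dynein light chain gene with near-identical copies, 1.88 to 2.26, and Sem1 (chr6:6557294-6578663), a small proteasome subunit gene, 0.407 to 0.547. In macrophages Sem1 had 193 CPM in isotype control, 91.2 CPM with single antibody A, and 190 CPM in each of the other libraries, while B2m had 1042, 2310, 2019 and 3341 CPM, with the combination last. These ratios varied little between unlike cell types, and whether they come from the treatment or from the making of the library cannot be told apart.

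**Figure D5:**
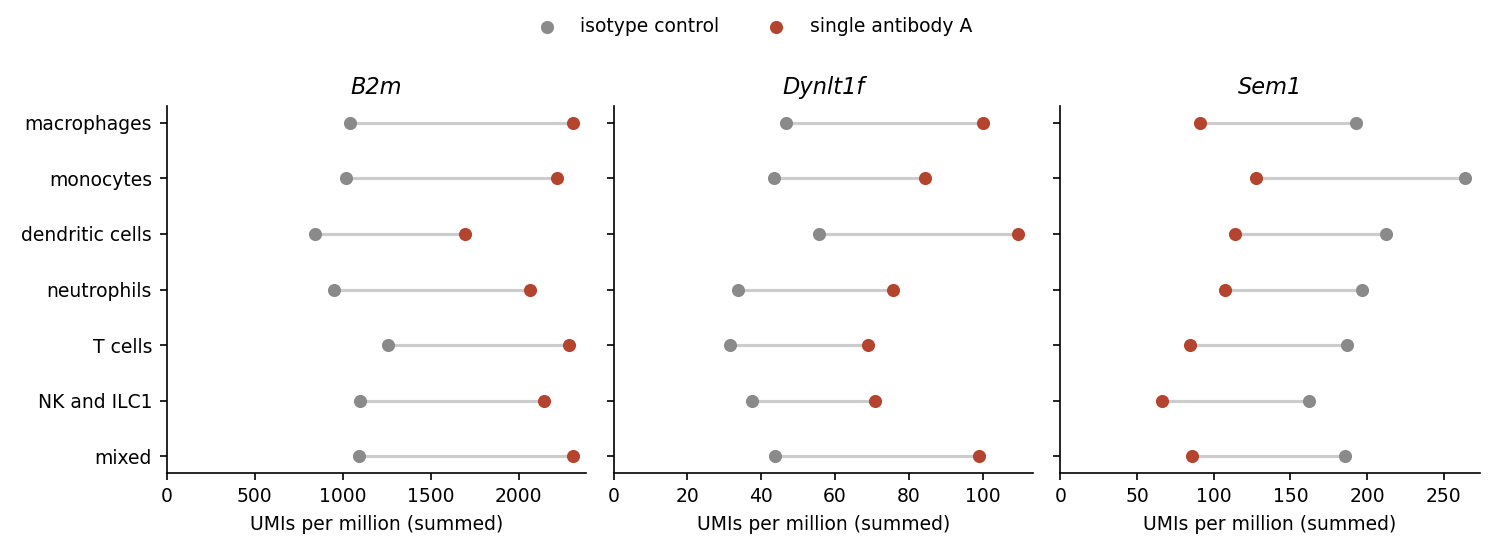
Summed UMIs per 1000000 UMIs of B2m, Dynlt1f and Sem1 in 7 classes, with isotype control in grey and single antibody A in red, 1 library each. B2m and Dynlt1f lie higher with single antibody A in each class shown and Sem1 lower, with ratios between 0.407 and 0.547.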

How the data were processed

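Cells of pooled MC38 tumors were profiled with the Chromium Flex assay. The authors deposited whole-number UMI counts per cell for 19059 genes, per the file headers from Cell Ranger 7.2.0. The submitters' processing notes name Cell Ranger 7.0.0 and mm10. The files hold the cells that program called, with doublets and poor cells still in them. There were 0 further columns of per-sample values.

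Cells with at least 500 genes and at most 10% mitochondrial UMIs were kept. Classes were gated on UMIs of marker lists per 10000 UMIs of a cell, in this order: mixed profiles (at least 3 UMIs of T or NK markers and at least 40 per 10000 of monocyte and macrophage markers), mast cells (20), neutrophils (40), NK cells and ILC1 (5), T cells (20), B cells (5), dendritic cells (10), tumor and stromal cells (20), and then cells with 80 or more per 10000 of monocyte and macrophage markers, as macrophages where C1q genes reached 20 and otherwise as monocytes. Doublets were not removed. They were scored with Scrublet in scanpy 1.11.5 for 1 alternative.

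UMIs were summed per class and scaled to 1000000. Genes with at least 20 CPM and 20 UMIs in either library were tested against 1.5-fold. Shares have exact binomial intervals, ratios of shares log intervals and ratios of CPM exact conditional intervals, all at 95%. Cells are not replicates, and no p-value was computed. Shares that need a UMI were also measured at 1 depth (2000 UMIs for T cell make-up, 2500 otherwise). Genes were named where they were among the 5 largest or 5 smallest ratios of a class with at least 50 CPM and 50 UMIs, or as the extreme or defining members of a gene list. The step that calls genes was tested on simulated data of macrophages, T cells, and NK cells and ILC1. Some unchanged genes passed 1.5-fold in T cells and in NK cells and ILC1. No other class was simulated. Neutrophils, dendritic cells, CD8+ T cells and Foxp3-negative CD4+ T cells held fewer UMIs in isotype control than the simulated classes.

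The members and lists were chosen with earlier results of these data known. After values were seen, limits of the gates were set on all cells pooled, Hdc was dropped from the neutrophil list, the mast cell limit was raised, the C1q limit was added for dendritic cells and neutrophils, a class of type 2 lymphocytes was dropped, and genes with over 10% of their UMIs in 1 cell were set apart. Ly6c2, Ccnb1, Cxcl11, Mx1, Mx2, Psme2, Gapdh, Eno1 and Ero1a have no value in the matrices, and Aldoa, whose symbol stands for more than 1 row, was left out. Gene positions are from GENCODE M21 (GRCm38), matched by Ensembl identifier for 411 of 411 genes, and promoters from RefSeq (GRCm38.p6). Alternatives were stricter gates, other filters on cells and genes, other scaling and weighting, drawing down to 1 depth, removal of high doublet scores or shared droplets, and counting mixed profiles as lymphocytes. Python 3.11.15, numpy 2.4.6, scipy 1.17.1, pandas 2.3.3 and matplotlib 3.10.9 were used.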

Additional observations from a re-analysis of the deposited data

How the results depend on the processing

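No paired analysis was possible because each group is 1 library. Of the values of class shares, T cell make-up and numbers of genes past 1.5-fold under the alternatives, 83 stayed close to the reported value, 21 moved and 2 changed direction. The T cell share ratio became 0.824 with mixed profiles counted, and the macrophage share ratio 0.953 after each cell was drawn down to 2500 UMIs, which left out 287 and 229 cells. The monocyte share ratio was 0.803 with stricter gates. The mixed share ratio was 0.422 with the top 5% by doublet score removed and 0.606 at 1 depth. The NK and ILC1 share ratio was 1.60 when the 62 and 21 mixed profiles that reached 3 UMIs of NK markers alone were counted. Mixed profiles with both T and NK cell markers (633 and 263) were counted as T cells. They outnumbered free NK cells and ILC1 in isotype control (274) but not with single antibody A (399). If they too were counted as NK cells and ILC1, that share would be smaller with single antibody A than in isotype control. The direction would then turn, which is not among the 2 changes given above, and no interval was computed. Numbers of genes past 1.5-fold followed the minimum level. With no minimum CPM, against at least 100 CPM, 258 against 21 rose and 528 against 6 fell in macrophages, 278 against 33 rose and 258 against 3 fell in monocytes, 624 against 73 rose and 611 against 85 fell in T cells, and 513 against 11 rose in NK cells and ILC1. There 30 fell with at least 100 CPM. In macrophages 19 fell without high doublet scores, and in monocytes 41 fell with stricter gates. Fewer or more genes being tested accounts for the first of these by construction, and the cause of the last pair was not tested. Of single genes and lists, 460 values stayed close and 93 moved, none with a change of direction past 1.5-fold. Median-of-ratios factors lay between 0.937 and 1.01. Depth limits the classes with about 100 cells or fewer, where single cells carry many of the leading genes.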

Other observations

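The other 2 libraries give context for the T cell make-up. The library titled anti-mouse FcgRII, whose treatment field names the other antibody, held 195 free T cells and 737 mixed profiles in 6083 cells, with a CD8+ to CD4+ ratio of 0.944 and a Treg share of CD4+ T cells of 47.9%. The combination held 369 free T cells and 1656 mixed profiles in 7599 cells, with a ratio of 1.98 and a Treg share of 6.67%. Free and T cell marked mixed profiles together made up 15.1% and 26.1% of these libraries. Among all profiles with lymphocyte markers, mixed ones made up 65.9% and 69.2%, against 74.7% in isotype control and 41.7% with single antibody A.

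Some gene groups outside the main comparisons also moved. Immediate early genes of NK cells and ILC1 were under a ratio of 1 for 11 of 12 tested, with 2 past the inverse of 1.5. MHC class II genes in Foxp3-negative CD4+ T cells rose for 4 of 6, while those of CD8+ T cells fell for 5 of 6, and in both classes the genes of this list with the highest levels, Cd74, H2-Aa, H2-Ab1 and H2-Eb1, took over 40% of their UMIs in the library of single antibody A from 1 cell and were at least 5-fold higher in macrophages. In dendritic cells, Fcgr3 (136 and 242 CPM, 1.79) and Fcgr2b (239 and 427 CPM, 1.78) rose, and macrophages had 1190 and 1240 CPM of Fcgr3 and 1236 and 1218 CPM of Fcgr2b. With single antibody A, 1 dendritic cell held 17.0% of the Fcgr3 UMIs and 1 held 23.2% of the Fcgr2b UMIs of the class. Complement C4b rose 1.66-fold in macrophages.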
